A study of Danio rerio with 3 samples.

Results

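Cerebrospinal fluid-contacting neurons (CSF-cN) formed a pair of classes, CSF-cN1 and CSF-cN2, in a deposited single-cell RNA annotation of sorted zebrafish cells. The cells described here were all those that the authors' integrated annotation named CSF-cN1 or CSF-cN2, and there were 272 of them among 6264 cells. Of these, 171 were CSF-cN1 and 101 were CSF-cN2. The library of 24 hours post fertilisation (hpf) held 78 CSF-cN1 and 34 CSF-cN2 cells, that of 36 hpf held 28 and 10, and that of 48 hpf held 65 and 57. The names rest on clusters of the same cells' RNA, so the RNA-based differences below describe the clusters and are not an independent check of them.

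CSF-cN, also called Kolmer-Agduhr cells, are GABAergic neurons that sit beside the central canal of the spinal cord and send a cilium-bearing ending into its fluid. The ion channel Pkd2l1 marks them across vertebrates, and through it they respond to bending of the cord, to fluid flow and to pH. In zebrafish they arise from the olig2-expressing motor neuron progenitor domain (pMN) and from the lateral floor plate next to it. The genes gata2a, gata3 and tal2 encode transcription factors that are active as these neurons form. Which of CSF-cN1 and CSF-cN2 corresponds to which origin is stated in none of the labels. The tables used here hold values per cell and none per gene, so pkd2l1, gata2a, gata3 and tal2 could not be looked at, and the class names were taken as deposited.

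All cells came from wild-type embryos that carried the Tg(olig2:EGFP) transgene and received no treatment. EGFP-positive cells were sorted from dissociated, deyolked embryos, and the labels name the source as spinal cord cells. There was 1 library per stage, at 24, 36 and 48 hpf, and no label says how many embryos were pooled for each. The promoter of the transgene chose the cells, so CSF-cN cells without EGFP were outside the sort and the counts here are not counts for the cord. The libraries held 1826, 2044 and 2394 cells and 16432785, 10656224 and 17562789 UMIs at 24, 36 and 48 hpf, where a UMI is a unique molecular identifier that stands for 1 captured RNA molecule. The 48 hpf library stood apart in its cell barcodes, and this held for its CSF-cN cells too: a start of 7 bases found in no other library was carried by 2 of 112 cells at 24 hpf, 0 of 38 at 36 hpf and 100 of 122 at 48 hpf (82.0%). Stage and barcode set cannot be told apart for 48 hpf. No CSF-cN cell shared its whole barcode with a cell of another library.

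Cells of 1 library are not replicates, so the subclasses could not be tested within a stage, nor the stages against each other. Across the 3 libraries, each of another stage, the subclasses can be compared as pairs, and an exact permutation test (sign flips, two-sided) cannot give a p below 0.25. Medians are given with the interquartile range over cells. The subclasses are called set apart in a measure where each median lay outside the interquartile range of the other subclass. The same rule applied to every pair of classes with at least 10 cells in the same library (786 pairs) shows how common such a call was. Shares of cells have exact (Clopper-Pearson) 95% intervals, which cover counting error only.

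CSF-cN1 cells outnumbered CSF-cN2 cells in all 3 libraries, at 48 hpf by 8 cells. It made up 69.6% of the CSF-cN cells at 24 hpf, with an exact interval of 60.2 to 78.0. The share was 73.7% at 36 hpf (56.9 to 86.6), and 53.3% at 48 hpf (44.0 to 62.4). The intervals of all 3 stages overlapped, and that of 48 hpf also held equal numbers. Among cells with at least 2000 UMIs the 48 hpf share was 50% (57 of 114 cells). The subclasses contributed unlike shares of RNA. CSF-cN1 held 3.06% of the UMIs of the 24 hpf library in 4.27% of its cells, 0.839% of the UMIs in 1.37% of the cells at 36 hpf and 1.48% in 2.72% at 48 hpf. CSF-cN2 held 1.53% of the UMIs in 1.86% of the cells at 24 hpf, 0.392% in 0.489% at 36 hpf and 2.04% in 2.38% at 48 hpf. In all 3 libraries, both subclasses had a smaller share of the UMIs than of the cells.

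CSF-cN1 cells carried fewer UMIs than CSF-cN2 cells in all 3 libraries, and the subclasses were set apart at 36 and 48 hpf but not at 24 hpf. At 24 hpf the median CSF-cN1 cell had 6933.5 UMIs (5650.25 to 8034) and the median CSF-cN2 cell 7602.5 (6657 to 8744.25), a ratio of 0.912. At 36 hpf the medians were 2825 UMIs in CSF-cN1 (1795.25 to 3695.5) and 4510 in CSF-cN2 (3876 to 5031.75), a ratio of 0.626. At 48 hpf they were 4375 in CSF-cN1 (3558 to 4896) and 5837 in CSF-cN2 (5159 to 6342), a ratio of 0.750. The direction was the same in 3 of 3 libraries, with a mean log2 ratio of -0.41 and p = 0.25 in the exact permutation test over libraries, the smallest it can give. Over all pairs of 1 CSF-cN1 and 1 CSF-cN2 cell of a library, the CSF-cN1 cell had more UMIs in 35.7%, 23.2% and 13.0% of pairs at 24, 36 and 48 hpf. Among all class pairs, pooled over the 3 libraries and with unlike classes among them, 47.7% were set apart in UMIs, so such a call was common. Among the 35 other pairs of classes that share a name and differ by a number, such as MN1 and MN2, 8 were set apart in UMIs. Pooled over the 3 libraries, a fold at least as large as that of the CSF-cN pair at 24 hpf was found in 20 of those 35. For the CSF-cN folds of 36 and 48 hpf the counts were 5 and 7. Within the 36 hpf library the largest fold of the other pairs was 1.21 (MN1 and MN5), against 1.596 for the CSF-cN pair. The 5 pairs thus came from the other stages. Within the 24 and 48 hpf libraries larger folds than that of the CSF-cN pair were found, up to 1.73 (MN1 and MN2) and 2.70 (MN4 and MN5).

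**Figure D1:**
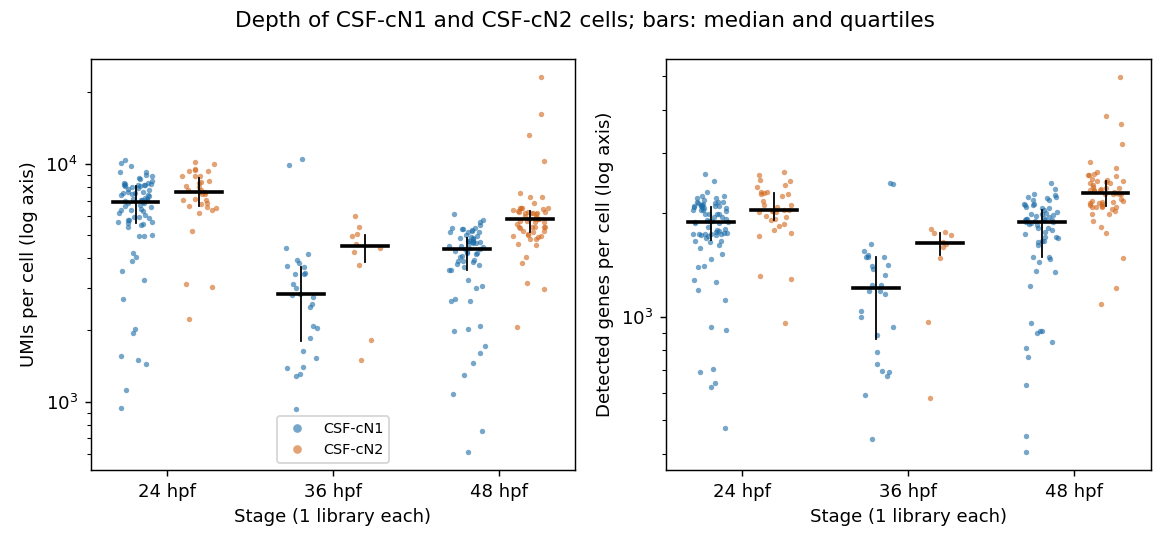
UMIs per cell (left) and detected genes per cell (right), both on log axes, for each CSF-cN1 and CSF-cN2 cell at 24, 36 and 48 hpf, with 1 library per stage. Points are cells, horizontal bars are medians and vertical bars are interquartile ranges; the medians of CSF-cN1 lie below those of CSF-cN2 at each stage, with the closest pair at 24 hpf (6933.5 and 7602.5 UMIs).

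The ranges of single cells were wide. CSF-cN1 cells ran from 944 to 10372 UMIs at 24 hpf, from 932 to 10463 at 36 hpf and from 617 to 6135 at 48 hpf. CSF-cN2 cells ran from 2230 to 10124 at 24 hpf, from 1495 to 6011 at 36 hpf and from 2066 to 23097 at 48 hpf. The shallow end was held mostly by CSF-cN1: cells with fewer than 2000 UMIs numbered 6 of 78, 8 of 28 and 8 of 65 in CSF-cN1, against 0 of 34, 2 of 10 and 0 of 57 in CSF-cN2. The 10 CSF-cN2 cells of 36 hpf, on which every comparison of the subclasses at 36 hpf rests, were 2 shallow cells with 1495 and 1809 UMIs and 8 cells between 3749 and 6011. A few cells were far deeper than their subclass. The deepest CSF-cN1 cells of 36 hpf had 10463 and 9845 UMIs, which is 3.70 and 3.48 times the median, and the deepest CSF-cN2 cells of 48 hpf had 23097 and 16214, which is 3.96 and 2.78 times the median. Whether such cells hold RNA of more than 1 cell was not tested. Without the 2 deepest cells of each subclass, an alternative chosen after seeing the data, the ratios of median UMIs were 0.911, 0.638 and 0.750 at 24, 36 and 48 hpf.

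Set against the rest of its library, CSF-cN1 was the shallower subclass at each stage, while CSF-cN2 was near the other cells at the later stages. The median UMI count of CSF-cN1 was 0.757 of that of the cells of all other classes at 24 hpf, 0.616 at 36 hpf and 0.741 at 48 hpf. For CSF-cN2 these ratios were 0.830, 0.983 and 0.988. By the same rule CSF-cN1 at 36 hpf was set apart from the other cells and the other 5 subclass medians were not. Of all 70 classes 30% were set apart from the rest of their library. Here and below, these 70 count a class once in each library and include the CSF-cN classes. Among the classes with at least 10 cells, CSF-cN1 had the 4th lowest median UMI count of 21 at 24 hpf, the lowest of 24 at 36 hpf and the 4th lowest of 25 at 48 hpf. CSF-cN2 ranked 7th, 12th and 12th lowest. The other cells include cycling classes, which are deep: against other cells called G1, the ratios were 0.944, 0.699 and 0.793 for CSF-cN1 and 1.03, 1.12 and 1.06 for CSF-cN2.

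The step between stages also differed between the subclasses. The median UMI count of CSF-cN1 at 36 hpf was 0.407 of its 24 hpf value, the 3rd lowest ratio of 20 classes, and that of CSF-cN2 was 0.593, the 13th lowest, while for all other cells together the ratio was 0.501. At 48 hpf the median was 0.631 of the 24 hpf value in CSF-cN1 and 0.768 in CSF-cN2, against 0.645 in all other cells. From 36 to 48 hpf the order of the subclasses turned round, with ratios of 1.55 in CSF-cN1 and 1.294 in CSF-cN2, against 1.287 in all other cells. The 36 hpf medians rest on 28 CSF-cN1 and 10 CSF-cN2 cells. Each stage is a single library, so sequencing depth, capture and developmental stage cannot be told apart in these ratios.

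Detected genes followed the UMIs. Medians at 24, 36 and 48 hpf were 1884.5, 1213 and 1880 genes in CSF-cN1 and 2044, 1641.5 and 2289 genes in CSF-cN2. The ratio of CSF-cN1 over CSF-cN2 was 0.922 at 24 hpf, which was not set apart, and 0.739 and 0.821 at 36 and 48 hpf, which were. Of all class pairs 49.6% were set apart in detected genes. The CSF-cN1 cell had more genes than the CSF-cN2 cell in 30.8%, 24.6% and 13.8% of the cell pairs at 24, 36 and 48 hpf. Median genes at 48 hpf were 0.998 of those at 24 hpf in CSF-cN1, the 11th lowest ratio of 18 classes, and 1.12 in CSF-cN2, the 16th lowest. All other cells together had 0.934 of the genes with 0.645 of the UMIs, but these medians are at unlike depth. Nearer in depth, other cells had a median of 1656.5 genes around 6295 UMIs at 24 hpf and 1970 genes around 5937 UMIs at 48 hpf.

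Because genes depend on depth, each CSF-cN cell was set against the median genes of the 100 cells of other classes in its library that were nearest in UMIs. By that measure both subclasses were rich in detected genes at each stage. CSF-cN1 cells had 1.08 times the genes of other cells at like depth at 24 hpf (1.02 to 1.13), 1.15 times at 36 hpf (1.08 to 1.24) and 1.15 times at 48 hpf (1.11 to 1.203). CSF-cN2 cells had 1.14 times at 24 hpf (1.09 to 1.17), 1.21 times at 36 hpf (1.17 to 1.24) and 1.21 times at 48 hpf (1.17 to 1.24). The lower quartile was above 1 in all 6 cases, and it was above 1 in 27.1% of all 70 classes, counted per library and with CSF-cN among them. Each class set against all cells outside it gave an order: CSF-cN2 ranked highest of 21 classes at 24 hpf, 2nd highest of 24 at 36 hpf behind MN2, and highest of 25 at 48 hpf. CSF-cN1 ranked 4th, 4th and 2nd highest. The richness was not particular to CSF-cN cells. At 24 hpf MN2 (1.099) and Lateral FP (1.082) also lay above CSF-cN1 (1.077). At 36 hpf MN2 (1.227) and MN3 (1.198) did so, against 1.151 in CSF-cN1. At 48 hpf MN4 (1.126) and MN2 (1.117) came next below CSF-cN1 (1.148). Not all motor neuron classes were high: MN5 had 0.935, 1.034 and 0.988 at 24, 36 and 48 hpf.

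**Figure D2:**
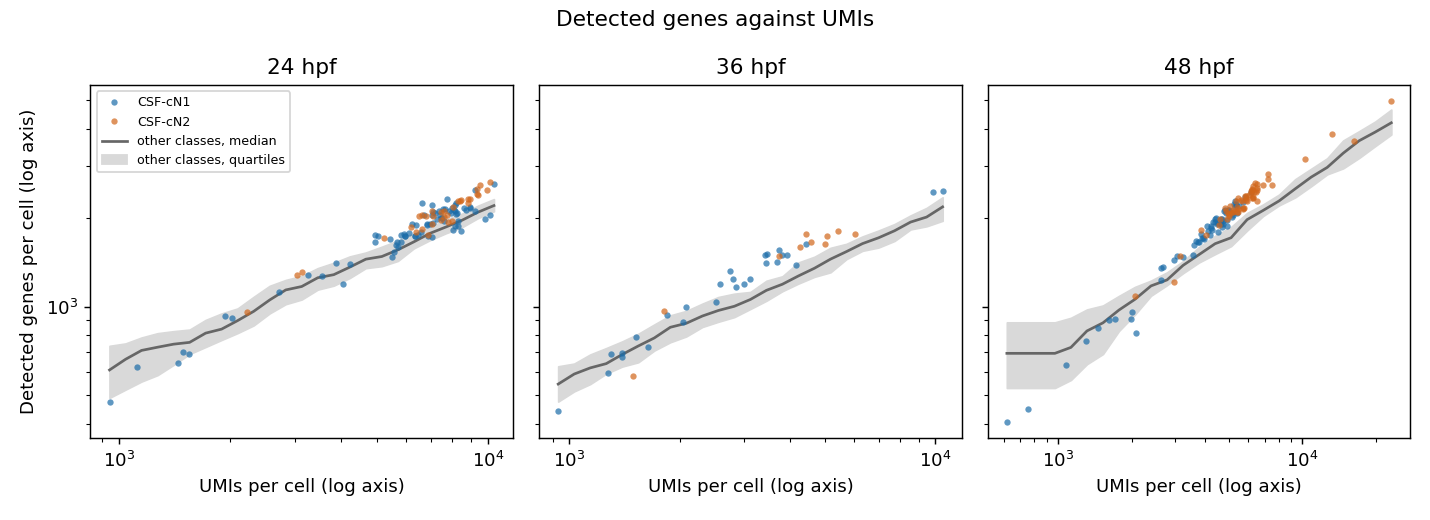
Detected genes against UMIs per cell, both on log axes, 1 panel per stage. Points are CSF-cN1 and CSF-cN2 cells. The line is the median and the band the interquartile range of genes over the 100 cells of other classes nearest in UMIs. Most points of both subclasses lie above the line, and the shallowest CSF-cN1 cell of each stage lies below it. At 48 hpf the line stays at 694.5 genes from 617 to 970 UMIs, so the shallowest cells there are not compared at strictly like depth.

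The values inside narrow windows of UMIs show the same for both subclasses against the other cells. At 24 hpf, among cells with 7000 to 8000 UMIs, the median was 2077.5 genes in 18 CSF-cN1 cells and 2020.5 in 10 CSF-cN2 cells, against 1831 in 171 cells of other classes. With 6000 to 7000 UMIs it was 1884 in 13 CSF-cN1 cells and 1864 in 7 CSF-cN2 cells, against 1690 in 111 other cells. With 8000 to 9000 UMIs it was 2114 in 15 CSF-cN1 cells and 2275 in 7 CSF-cN2 cells, against 1965 in 183 other cells. There the interquartile ranges of the subclasses did not overlap (1915.5 to 2156 and 2262.5 to 2301). At 48 hpf, among cells with 4000 to 5000 UMIs, it was 1920 genes in 27 CSF-cN1 cells and 2020 in 8 CSF-cN2 cells, against 1651 in 370 other cells. In the 48 hpf window of 5000 to 6000 UMIs it was 2202.5 in 12 CSF-cN1 cells and 2174 in 21 CSF-cN2 cells, against 1790 in 303 other cells. Between the subclasses the order was mixed. CSF-cN1 had the higher median in both 24 hpf windows below 8000 UMIs and in the 48 hpf window above 5000 UMIs, and CSF-cN2 in the others. No window of 36 hpf held 5 cells of each subclass. Classes with the nearest median depth had fewer genes. At 36 hpf the class CMN Precursor, nearest to CSF-cN1 with 3265 UMIs, had a median of 982 genes, and at 48 hpf the class NM Progenitor, with 4309 UMIs, had 1493. The size of the gap varied, among motor neuron classes too. MN2, next nearest to CSF-cN1 at 48 hpf with 4272 UMIs, had 1806 genes against 1880 in CSF-cN1. NP2, nearest to CSF-cN1 at 24 hpf with 7298 UMIs, had 1767 genes against 1884.5 in CSF-cN1. MN5, nearest to CSF-cN2 at 36 hpf with 4513 UMIs, had 1346 genes against 1641.5 in CSF-cN2. MN4, next nearest there with 4493.5 UMIs, had 1446.5 genes.

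Between the subclasses, the difference in genes at like depth was small. The ratio of CSF-cN1 over CSF-cN2 was 0.945 at 24 hpf, 0.949 at 36 hpf and 0.954 at 48 hpf, with the subclasses set apart at 24 and 48 hpf and not at 36 hpf. Of all class pairs 67.4% were set apart in this measure. When single CSF-cN1 and CSF-cN2 cells within 10% of each other in UMIs were paired, the median ratio of genes was 0.973 over 32 pairs at 24 hpf (interquartile range 0.899 to 1.04) and 0.991 over 26 pairs at 48 hpf (0.966 to 1.02). Both ranges held 1. Pairs were called only where the interquartile range of the pair values left out 1, so neither stage was called in pairs. This is another rule than that for the subclass medians. The CSF-cN1 cell had fewer genes in 20 of 32 pairs at 24 hpf, in 3 of 5 at 36 hpf and in 16 of 26 at 48 hpf.

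The share of mitochondrial reads was alike in the subclasses and took its own course against the other cells. At 24 hpf it was 0.795% in CSF-cN1 (0.685 to 1.00) and 0.819% in CSF-cN2 (0.550 to 0.975), at 36 hpf 1.37% (1.03 to 3.09) and 1.19% (0.945 to 2.02), and at 48 hpf 1.74% (1.45 to 2.21) and 1.78% (1.51 to 2.08). The ratio of CSF-cN1 over CSF-cN2 was 0.971, 1.15 and 0.977, and the subclasses were set apart at none of the stages, where 32.7% of all class pairs were. The order of the medians was not that of most cell pairs at 24 and 48 hpf, as the CSF-cN1 cell had the higher share in 53.4% and 52.0% of pairs. Cells above 5% are absent from the tables (the highest value was 4.995%), so the upper end is cut in every class.

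At 48 hpf both subclasses had low mitochondrial shares for their library. The medians of 1.74% in CSF-cN1 and 1.78% in CSF-cN2 stood against 2.38% in the cells of all other classes (1.91 to 2.89), ratios of 0.729 and 0.746, and both subclasses were set apart from the other cells. Of all 70 classes, counted per library and with CSF-cN among them, 15.7% were. CSF-cN1 had the 2nd lowest and CSF-cN2 the 4th lowest median of 25 classes. The low share was not particular to CSF-cN cells: pMN3 had 1.61% (13 cells), NM Progenitor 1.76% (19 cells) and pMN1 1.79% (55 cells). The motor neuron classes MN1 to MN4, postmitotic neurons from the same sort, had 2.67% at 48 hpf (2.205 to 3.14). At 24 hpf the order was the other way round against all other cells, 0.679%, with ratios of 1.17 for CSF-cN1 and 1.21 for CSF-cN2. At 36 hpf the other cells had 1.06% and the ratios were 1.30 and 1.13. Neither of these stages was set apart. Against MN1 to MN4 as 1 group, which had 0.885% at 24 hpf and 1.41% at 36 hpf, the ratios were 0.899, 0.969 and 0.650 for CSF-cN1 and 0.925, 0.844 and 0.665 for CSF-cN2. At the early stages that group was mixed. At 24 hpf both subclasses lay above MN1 (0.702%) and below MN2 (1.38%), and at 36 hpf CSF-cN1 lay above MN1 (1.23%) and MN3 (1.32%). At 48 hpf the medians of the 4 classes, 2.51% to 2.79%, were all above those of both subclasses.

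**Figure D3:**
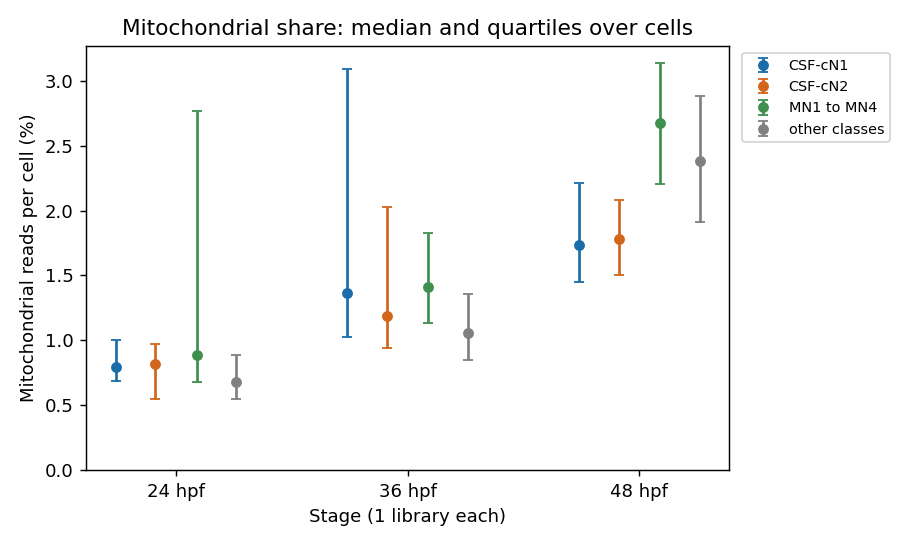
Mitochondrial reads in percent of a cell's UMIs at 24, 36 and 48 hpf, for CSF-cN1, CSF-cN2, the motor neuron classes MN1 to MN4 and all classes other than CSF-cN. Points are medians over cells and bars interquartile ranges, with 1 library per stage; at 48 hpf the CSF-cN1 and CSF-cN2 medians of 1.74% and 1.78% lie below both other groups.

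The median mitochondrial share at 48 hpf was 1.27 times that at 36 hpf in CSF-cN1 and 1.49 times in CSF-cN2, against 2.26 times in all other cells. These were the lowest and 2nd lowest ratios among 22 classes. Stage and library cannot be told apart in them, and the 36 hpf medians rest on 28 CSF-cN1 and 10 CSF-cN2 cells. In CSF-cN1, high shares went with shallow cells. CSF-cN1 cells with fewer than 0.5 of the median UMIs of their subclass had a median mitochondrial share of 3.34% in 9 cells of 24 hpf, 3.97% in 5 cells of 36 hpf and 2.43% in 10 cells of 48 hpf, against 0.783%, 1.32% and 1.74% in the rest. All 8 CSF-cN1 cells of 36 hpf above 3% had at most 2086 UMIs, while at 48 hpf 3 of the 6 such cells were that shallow for their subclass and they reached 4187 UMIs. In CSF-cN2 the few shallow cells had 2.41% at 24 hpf (3 cells) and 3.86% at 36 hpf (2 cells), against 0.802% and 1.09% in the rest. At 48 hpf the order in CSF-cN2 was the other way round, with 1.69% in 1 shallow cell against 1.78%, and neither of its 2 cells above 3% was shallow. Above 3% there were 6 of 78, 8 of 28 and 6 of 65 CSF-cN1 cells and 1 of 34, 1 of 10 and 2 of 57 CSF-cN2 cells. Among cells with at most 3% mitochondrial reads, the ratio of median UMIs of CSF-cN1 over CSF-cN2 was 0.926 at 24 hpf, 0.751 at 36 hpf and 0.765 at 48 hpf, nearer to 1 at 36 hpf than the 0.626 of all cells. The part of damaged cells in the lower UMI counts was not tested.

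Nearly all CSF-cN cells were called G1, the phase given where neither the S nor the G2M score was above 0. The integrated table had 3 of 272 cells called S or G2M (1.103%, exact interval 0.228 to 3.19). In CSF-cN1 these were 0 of 78 at 24 hpf, which allows a share of up to 3.85% by a floor of 3 cells and up to 4.62% by the exact interval, 1 of 28 at 36 hpf (3.57%, 0.0904 to 18.3) and 1 of 65 at 48 hpf (1.54%, 0.0389 to 8.28). In CSF-cN2 they were 0 of 34, which allows up to 8.82% by the floor and 10.3% by the exact interval, 0 of 10, which allows up to 30% and 30.8%, and 1 of 57 (1.75%, 0.0444 to 9.39). In MN1 to MN4, which as motor neurons have left the cycle, the share was 0.885% at 24 hpf (1 of 113), 2.24% at 36 hpf (7 of 313) and 0.522% at 48 hpf (3 of 575). The CSF-cN intervals held each of these values, so at these cell numbers the CSF-cN shares could not be told apart from those of the motor neurons. In all other classes together the shares were 70.1%, 39.3% and 21.1%.

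The 3 called cells were at the ends of the depth range or near them. The 36 hpf CSF-cN1 cell called S was the deepest of its subclass, with 10463 UMIs and an S score of 0.304. The 48 hpf CSF-cN1 cell called G2M was the shallowest of all, with 617 UMIs. The 48 hpf CSF-cN2 cell called S had 16214 UMIs, the second deepest. The phase calls of the stage tables added 6 cells, all at 48 hpf, for 9 of 272 in all (3.31%, 1.52 to 6.19). At 48 hpf they called 5 of 65 CSF-cN1 cells (7.69%, 2.54 to 17.0) and 3 of 57 CSF-cN2 cells (5.26%, 1.099 to 14.6), where they called 13.4% of MN1 to MN4 cells (77 of 575).

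In the integrated table the scores themselves, though below 0 in nearly all cells, were higher in CSF-cN1 than in CSF-cN2 at each stage. The scores have no true zero, so differences are given. The median S score was -0.340 in CSF-cN1 and -0.446 in CSF-cN2 at 24 hpf (difference 0.105), -0.392 and -0.476 at 36 hpf (0.0842), and -0.388 and -0.485 at 48 hpf (0.0964). The median G2M score was -0.253 in CSF-cN1 and -0.366 in CSF-cN2 at 24 hpf (difference 0.114), -0.298 and -0.403 at 36 hpf (0.105), and -0.295 and -0.423 at 48 hpf (0.128). The subclasses were set apart in both scores at all 3 stages. Such calls were the rule among these classes, with 76.2% of all class pairs set apart in the S score and 80.2% in the G2M score. At 48 hpf the overlap was slight: the CSF-cN1 cell was higher in 93.0% of cell pairs in S and in 96.7% in G2M. Those shares were 77.5% and 82.5% at 24 hpf and 68.9% and 78.2% at 36 hpf. Of the 35 other pairs of classes that differ by a number, 21 were set apart in S and 26 in G2M. In the integrated scores CSF-cN2 had the lowest median G2M score of all ranked classes at each stage, and the lowest S score at 36 and 48 hpf, with MN2 lower in S at 24 hpf (-0.462). MN2 was next lowest in G2M at each stage (-0.359, -0.350 and -0.347) and in S at 36 and 48 hpf (-0.459 and -0.438).

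**Figure D4:**
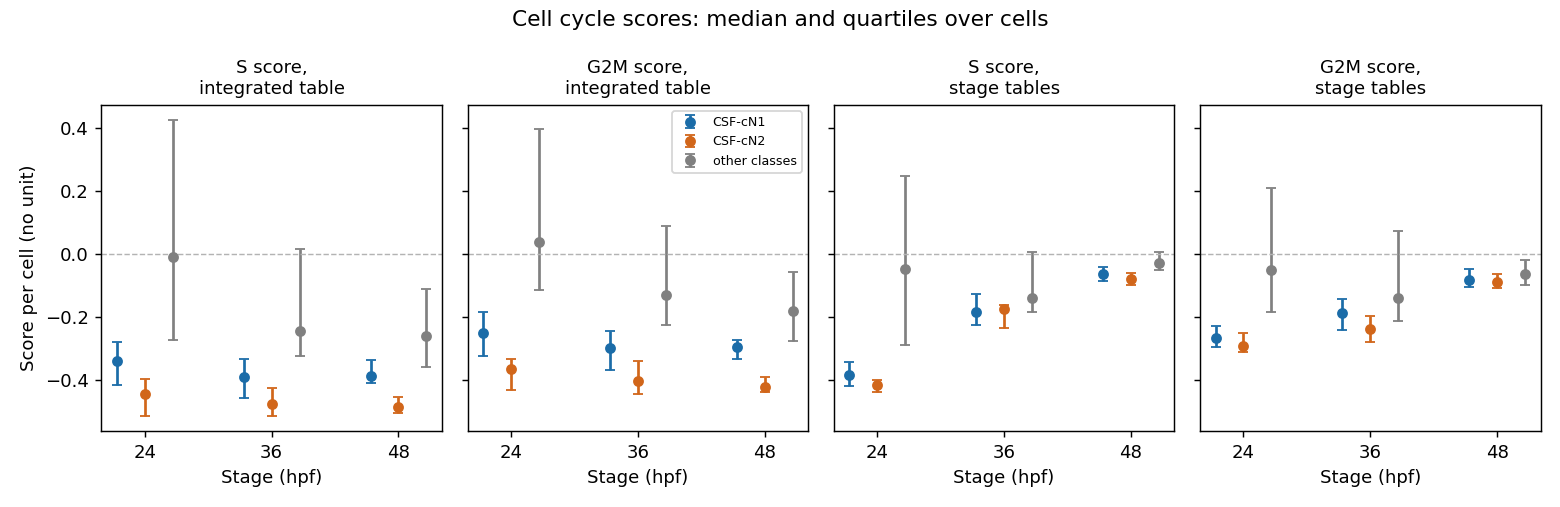
S and G2M scores per cell (no unit) from the integrated table (left pair of panels) and from the stage tables (right pair), by stage, for CSF-cN1, CSF-cN2 and all other classes. Points are medians and bars interquartile ranges over cells; CSF-cN2 lies below CSF-cN1 in the integrated scores at each stage, and the subclasses overlap in the stage tables.

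These differences depended on the table. In the scores of the stage tables the S difference was 0.0317 at 24 hpf, -0.00996 at 36 hpf and 0.0149 at 48 hpf. The G2M difference there was 0.0267, 0.0514 and 0.00509 at those stages. The subclasses were set apart in neither score at any stage, where 56.4% of all class pairs were set apart in the S score and 65.6% in the G2M score of these tables. By these scores CSF-cN2 ranked lowest, 7th lowest and lowest of the classes in S at 24, 36 and 48 hpf, and lowest, 3rd lowest and 3rd lowest in G2M. At 36 hpf the S difference turned sign, although the CSF-cN1 cell was higher in 57.1% of cell pairs. The 2 sets of S scores differed in every cell, and no source used here says how each set of scores was computed. In CSF-cN1 and CSF-cN2 cells paired within 10% in UMIs, the integrated S score was higher in the CSF-cN1 cell in 25 of 32 pairs at 24 hpf, 3 of 5 at 36 hpf and 25 of 26 at 48 hpf, with median differences of 0.105, 0.0499 and 0.0784. The integrated G2M score was higher in the CSF-cN1 cell in 27 of 32, 3 of 5 and 26 of 26 pairs. In the same pairs the S score of the stage tables was higher in the CSF-cN1 cell in 20 of 32, 3 of 5 and 15 of 26, and the G2M score of those tables in 19 of 32, 3 of 5 and 14 of 26, with interquartile ranges of the difference that all held 0. RNA free in the droplets enters such scores too, and its part was not tested.

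The names of the same cells in the stage tables were nearly the same. Of the 272 cells, 271 had a CSF-cN name there (99.6%, exact interval 98.0 to 100.0). The exception was the 48 hpf CSF-cN1 cell with 617 UMIs and 406 genes, which was named dl IN. At 24 hpf 76 of 78 CSF-cN1 cells were named CSF-cN1 and 2 were named CSF-cN2, with 944 and 6570 UMIs, and all 34 CSF-cN2 cells kept their name. The 36 hpf table has a single name, CSF-cN, which all 38 cells carried, so the split at 36 hpf exists in the integrated annotation alone. At 48 hpf 64 of 65 CSF-cN1 cells and 56 of 57 CSF-cN2 cells kept their name, and 1 CSF-cN2 cell with 5423 UMIs was named CSF-cN1. In the integrated clustering each subclass was a single cluster.

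Read in the other direction, the names differed at 24 hpf. The stage tables named 280 cells CSF-cN, and 9 of these, all at 24 hpf, were in other classes of the integrated table. Of the 43 cells named CSF-cN2 at 24 hpf, 6 were Pre-V3 IN in the integrated table, with a median of 7894.5 UMIs and 1834 genes, and 1 was V3 IN. Of the 78 named CSF-cN1, 2 were Mes1, with 6277 and 10106 UMIs. By the names of the stage table CSF-cN1 was therefore 78 of 121 CSF-cN cells at 24 hpf.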

How the data were processed

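EGFP-positive cells of Tg(olig2:EGFP) zebrafish embryos were profiled with the 10x Chromium 3' system, 1 library per stage, per the labels' protocols. The submitters' processing notes name Cell Ranger, Seurat and GRCz11, with no version or setting. The deposited tables hold 1 row per cell and no value per gene. UMIs and detected genes are counts deposited without normalisation. Mitochondrial reads are given by the authors as a percent of each cell's UMIs. For the cell cycle the authors deposited an S and a G2M score per cell, relative to the cells scored together, and no source used here lists their genes. The fewest UMIs in a cell were 504 and the highest mitochondrial share 4.995%, so the tables were already filtered when deposited. The treatment of doublets is stated in none of the labels or headers. Without gene values no doublet caller could be run and cells could not be thinned to a fixed depth, so cells of like depth were compared instead.

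Integrated and stage tables were joined by barcode and stage for all 6264 cells. The members and the lists of measures and classes were chosen with earlier results of these data known. Subclasses were compared by medians per stage, as ratios for counts and percents and as differences for scores. Genes at like depth were set against the 100 nearest cells in log UMIs outside both subclasses, and for the ranking and the background of all classes outside the class itself. Classes named were the CSF-cN classes, stage-table names carried by at least 3 cells of a subclass, and the classes nearest in median UMIs. MN2, pMN1, pMN3, the names of discordant cells and the numbered pairs were named after their values were seen. MN1 to MN4 served as postmitotic comparison classes. Intervals of shares are exact (Clopper-Pearson) at a level of 0.95, and both these and the floor of 3 cells for a count of 0 cover counting error only. The like-depth measure and the intervals were tested on simulated data. The exact permutation test over libraries was added after seeing the data. Alternatives were other filters on UMIs, mitochondrial share, phase and names, means, 50 or 200 nearest cells, a straight line, paired cells and the other table's scores or calls. Tables were handled with pandas 2.3.3 and numpy 2.4.6 in Python 3.11.15, intervals came from scipy 1.17.1, and plots from matplotlib 3.10.9.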

Additional observations from a re-analysis of the deposited data

Results flagged for a closer look

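The S difference between CSF-cN1 and CSF-cN2 in the scores of the stage tables stood out because its sign was not the same at all stages. It was 0.0317 at 24 hpf, -0.00996 at 36 hpf and 0.0149 at 48 hpf. The difference between the stages was not tested.

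The ratio of the median mitochondrial shares of CSF-cN1 over CSF-cN2 stood out in the same way, with 0.971 at 24 hpf, 1.15 at 36 hpf and 0.977 at 48 hpf. The difference between the stages was not tested, and at 36 hpf it rests on 28 CSF-cN1 and 10 CSF-cN2 cells.

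Both subclasses lay above the other cells of the library in mitochondrial share at 24 hpf, with ratios of 1.17 for CSF-cN1 and 1.21 for CSF-cN2, and below them at 48 hpf, with ratios of 0.729 for CSF-cN1 and 0.746 for CSF-cN2. At 24 hpf neither subclass was set apart from the other cells. Against MN1 to MN4 as 1 group both subclasses lay below at each stage, with ratios of 0.899 for CSF-cN1 and 0.925 for CSF-cN2 at 24 hpf. The difference between the stages was not tested, with 1 library at each.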

How the results depend on the processing

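Over 51 results and 243 alternatives, 216 values were on the same side of the call as the reported value and within 1.5 times of it, or inside its interval for a share. For ratios near 1 this band is wide, and a value in the other direction can fall within it. The direction differed in 13 alternatives, 12 of them of values that were not set apart in the first place and that are counted among the 216. These were the mitochondrial ratio CSF-cN1 over CSF-cN2 (1.13 and 1.06 by means at 24 and 48 hpf, 0.951 at 36 hpf with at most 3% mitochondrial reads), the UMIs of CSF-cN2 over other cells called G1 (1.03, 1.12 and 1.06 at the 3 stages) or over MN1 to MN4 (1.098 at 36 hpf and 1.07 at 48 hpf), and the mitochondrial share over MN1 to MN4 at 24 and 36 hpf (0.844 to 0.969). Scores of the stage tables ended the calls of the S difference (0.0317 at 24 hpf and 0.0149 at 48 hpf, and the reverse direction with -0.00996 at 36 hpf) and of the G2M difference (0.0267, 0.0514 and 0.00509 at 24, 36 and 48 hpf). In cells paired within 10% or 5% in UMIs, the ratio of genes, CSF-cN1 over CSF-cN2, was 0.973 at 24 hpf and 0.991 at 48 hpf, and neither was called. Pairs had a rule of their own: a call where the interquartile range of the pair values left out no difference between the cells. For the scores, pairing within 10%, added after seeing the data, gave S 0.0499 and G2M 0.1004 at 36 hpf, not called by the rule for pairs, and G2M 0.0786 at 48 hpf. With at least 2000 UMIs the 36 hpf differences were 0.0749 for S, no longer set apart, and 0.0699 for G2M, and genes at like depth at 48 hpf gave 0.958, no longer set apart. The ratio of genes at like depth at 24 hpf was 0.954 with 50 nearest cells, and CSF-cN1 over other cells was 1.07 with 200 nearest, both calls lost. At 36 hpf the geometric mean gave a gene ratio of 0.791 and the mean an S difference of 0.0709, neither set apart.

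The share of CSF-cN1 called S or G2M at 48 hpf was 0% with a score above 0.1, with at least 2000 UMIs or with a CSF-cN name in both tables, and that of CSF-cN2 was 0% with a score above 0.1. With at least 2000 UMIs, 100% of CSF-cN1 cells at 48 hpf had a CSF-cN name in the stage table. In alternatives added after seeing the data, CSF-cN1 at 24 hpf was set apart in UMIs from the other cells with at least 2000 UMIs (0.739) or at most 3% mitochondrial reads (0.746). The causes were not tested. Leaving out the deepest 5% of each library removed no CSF-cN cell at 24 or 36 hpf and 1 at 48 hpf, so it says little about them. Asking for a CSF-cN name in both tables removed no CSF-cN cell at 24 or 36 hpf, and keeping G1 cells removed none at 24 hpf. Those alternatives could not change the values there. The exact permutation test over the 3 libraries, also added after seeing the data, cannot pass a threshold of 0.05. At 36 hpf the 10 CSF-cN2 cells limit the comparison of the subclasses.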
